A study of Caenorhabditis elegans with 2 samples.

Results

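The loci of 5 genes for PBC and MEIS class homeodomain proteins, ceh-40, ceh-20, ceh-60, psa-3 and unc-62, were examined in a ChIP-seq experiment on tagged CEH-40 in Caenorhabditis elegans. The 5 genes were listed by symbol and found in the Ensembl release 115 annotation of WBcel235, among 19973 protein-coding genes on the nuclear chromosomes. A locus is the gene body, introns included, with 10 kb on either side. Together the 5 loci cover 137 kb and hold 154 of the 103174 nuclear peak summits in the authors' ranked list made from both replicates.

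The experiment had 1 group of 2 biological replicates, each of whole worms at the young adult stage, 76 h old, synchronized as starved L1 larvae after bleaching. The strain, OP232, carries the integrated transgene wgIs232, in which ceh-40 is fused to TY1, EGFP and FLAG and which also holds unc-119, in an unc-119(ed3) mutant background. Sonicated chromatin was precipitated with an anti-GFP antibody. No second condition was included, so the comparisons below set the 5 loci beside other loci and 1 replicate beside the other. The worms were not separated into cell types, so a peak is an average over the body. Because ceh-40 and unc-119 are present at their own loci and in the transgene, reads from the 2 copies cannot be told apart, and the labels do not give how much sequence around ceh-40 the transgene carries. The control library named in the labels was not analysed here. The ranked list made from both replicates held 103201 peaks, a second list of peaks matched between the 2 replicates held 77932, and the ranked lists of replicate 1 and replicate 2 held 51327 and 44133. None gives read counts, so the depth behind a peak is unknown, and a peak missing from a list is not shown to be missing from the worms.

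PBC and MEIS proteins are partners of Hox proteins and of each other: they join on DNA and sharpen which sites a Hox protein takes, and in flies the MEIS protein also brings the PBC protein into the nucleus. CEH-20, CEH-40 and CEH-60 are the worm's PBC proteins, related to extradenticle in flies and Pbx proteins in mammals. UNC-62 and PSA-3 are its MEIS proteins, related to fly homothorax. In worms CEH-20 works with Hox proteins in mesoderm, neurons and epidermis, CEH-40 overlaps with it in the embryo, CEH-60 works with UNC-62 on yolk protein genes in the adult intestine, and PSA-3 acts in an asymmetric division in the tail epidermis.

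The sequences shown first are those under the peaks on which the description of each gene turns, read 5′ to 3′ on the + strand of the RefSeq genome WBcel235, which is the authors' build ce11. The whole peak is given for the 1 thresholded peak in the 5 loci, downstream of ceh-40, and 60 bases on either side of the summit for the others: the peaks nearest before the starts of ceh-40 and ceh-20, and the strongest peaks of ceh-60, unc-62 and psa-3. All are ranked peaks except that of ceh-20, which is in the list of peaks matched between the replicates. Capitals mark a pair of letter patterns like the A box and B box inside tRNA genes in the first sequence, and the PBC-Hox pattern TGATNNAT, on the opposite strand, in the last. The other 4 hold neither TGATNNAT nor the MEIS pattern TGACAG in the bases shown.
ceh-40 downstream peak, chrX:12312926-12313165: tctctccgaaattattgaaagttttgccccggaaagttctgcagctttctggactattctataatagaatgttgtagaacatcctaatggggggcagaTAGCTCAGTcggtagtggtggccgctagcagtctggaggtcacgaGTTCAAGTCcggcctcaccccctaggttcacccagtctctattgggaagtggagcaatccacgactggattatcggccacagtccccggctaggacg
ceh-40 start peak, chrX:12320853-12320973: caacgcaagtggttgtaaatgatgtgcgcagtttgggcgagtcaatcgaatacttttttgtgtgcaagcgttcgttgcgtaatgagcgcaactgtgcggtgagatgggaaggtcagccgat
ceh-20 start peak, chrIII:6979051-6979171: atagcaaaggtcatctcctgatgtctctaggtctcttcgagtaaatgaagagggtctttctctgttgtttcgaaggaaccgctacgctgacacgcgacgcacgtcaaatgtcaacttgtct
ceh-60 gene-end peak, chrX:6522856-6522976: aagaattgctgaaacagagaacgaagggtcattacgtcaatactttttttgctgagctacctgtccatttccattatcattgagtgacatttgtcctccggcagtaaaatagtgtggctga
unc-62 coding peak, chrV:4510053-4510173: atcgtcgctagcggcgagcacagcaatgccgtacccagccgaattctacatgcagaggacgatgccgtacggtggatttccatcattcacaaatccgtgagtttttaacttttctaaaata
psa-3 locus peak, chrX:15424189-15424309: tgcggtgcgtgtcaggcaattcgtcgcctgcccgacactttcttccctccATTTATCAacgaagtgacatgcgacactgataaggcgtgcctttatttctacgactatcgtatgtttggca

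Peaks were present at all 5 loci, and 22 of the 154 (14.3%) were in the top 10% of nuclear ranked peaks by signal. Each peak carries a signal value that the authors deposited without a unit, and its percentile is the share of nuclear ranked peaks with the same or a lower signal. The strongest peak of each locus had a signal of 59.0 at ceh-40, 52.8 at ceh-20, 47.8 at ceh-60, 42.9 at psa-3 and 38.6 at unc-62. These signals lay at the 99.2nd, 98.8th, 98.2nd, 97.1st and 94.98th percentile of ranked peaks. All 5 loci thus held a peak in the top 10% of ranked peaks, as did 84.1% of all protein-coding loci taken with the same flanks, so the share says little about these genes.

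Set beside other protein-coding loci, the strongest signal was at the 84.6th percentile for ceh-40, the 78.1st for ceh-20, the 69.2nd for ceh-60, the 54.4th for psa-3 and the 37.3rd for unc-62. The median protein-coding locus had a strongest signal of 41.7, and a locus needed 69.1 to reach the top 10%, which no member did. Among all windows of the same length as each locus, placed every 1 kb along the nuclear chromosomes, the percentiles were 86.0 for ceh-40, 80.7 for ceh-20, 67.2 for ceh-60, 47.3 for psa-3 and 26.8 for unc-62. The unc-62 locus was below the middle of both backgrounds in this measure.

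**Figure D1:**
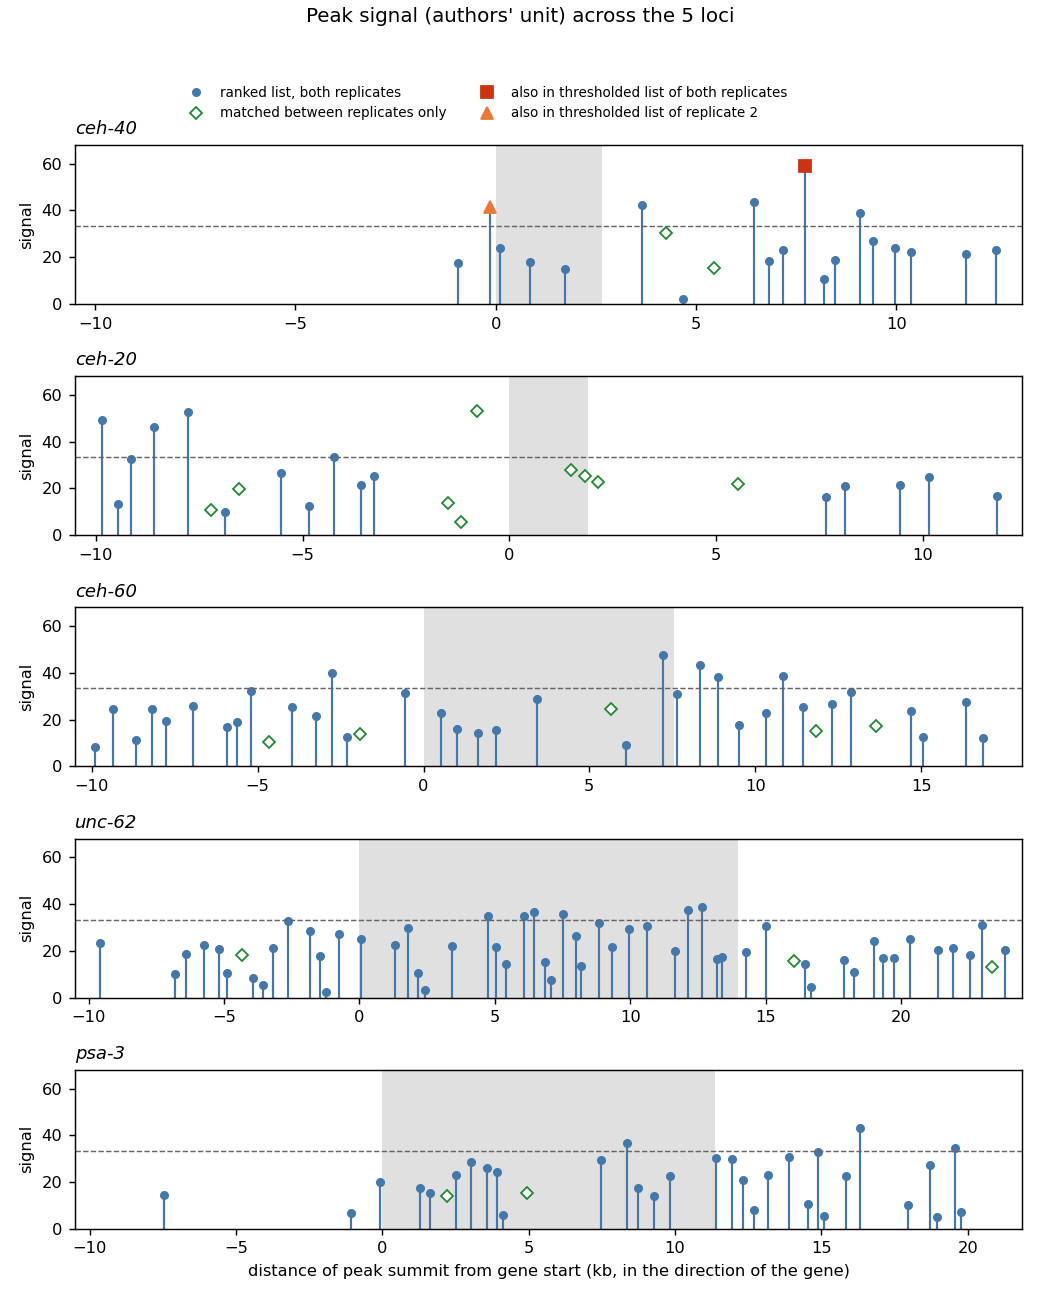
Signal of every ranked peak (vertical axis, the authors' unit) against the distance of its summit from the start of the gene (horizontal axis, kb, in the direction of the gene), with 1 panel for each of the 5 loci. Filled circles are ranked peaks, open diamonds are peaks found only in the list of peaks matched between the replicates, the square and the triangle mark peaks of thresholded lists, gray marks the gene body and the dashed line is the top 10% (33.3). The ceh-20 gene body holds no filled circle, and the unc-62 gene body holds 25.

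The number of peaks set the genes in another order. The unc-62 locus held 54 ranked summits in 34.0 kb, which is 1.59 per kb, ceh-60 held 34 (1.23 per kb), psa-3 held 31 (0.988 per kb), ceh-40 held 19 (0.839 per kb) and ceh-20 held 16 (0.731 per kb). The median protein-coding locus had 1.17 per kb. Windows as long as the unc-62 locus had a median of 38 summits, and 98.6% of them had no more than unc-62. The ceh-60 locus lay at the 66.2nd percentile of its windows, psa-3 at the 38.3rd, ceh-40 at the 28.7th and ceh-20 at the 24.1st. The 5 loci together had 1.12 summits per kb, against 1.03 per kb over the nuclear chromosomes.

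**Figure D2:**
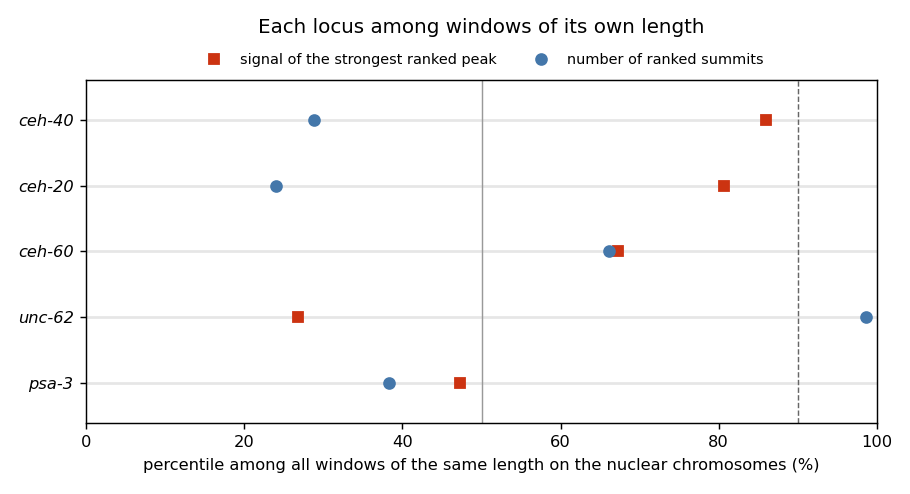
Percentile of each of the 5 loci among all windows of its own length (horizontal axis, %), for the signal of the strongest ranked peak (squares) and for the number of ranked summits (circles). The ceh-40 locus is at 86.0 by signal and 28.7 by number, whereas unc-62 is at 26.8 by signal and 98.6 by number.

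The typical peak in these loci had a signal above the usual one. The median signal within the locus was 24.0 at ceh-60, 23.1 at ceh-20, 23.0 at ceh-40, 22.5 at psa-3 and 21.0 at unc-62, and the median protein-coding locus had 18.8. By this measure the members lay at the 94.5th percentile of protein-coding loci for ceh-60, the 91.2nd for ceh-20, the 91.0th for ceh-40, the 88.6th for psa-3 and the 77.6th for unc-62. In replicate 1 the medians were 15.9 at ceh-60, 15.8 at ceh-20, 15.4 at ceh-40, 13.3 at psa-3 and 11.9 at unc-62, with 13.5 over its nuclear ranked peaks. In replicate 2 they were 19.9 at ceh-20, 18.2 at ceh-40, 16.8 at psa-3, 16.5 at ceh-60 and 15.4 at unc-62, with 14.8 over its nuclear ranked peaks. All 5 medians were above that of the whole list in replicate 2, whereas psa-3 and unc-62 were below it in replicate 1. The 200 bp windows around the 154 summits had a GC content of 40.1% ± 7.30 (SD), against 38.3% ± 7.04 around all ranked summits, and its part in the difference was not tested.

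The threshold that the authors set on reproducibility was passed at 1 of the 5 loci. The irreproducible discovery rate (IDR) measures how well matched peaks keep their rank between a pair of peak sets. The thresholded list made from both replicates ends at an IDR of 0.01, which is 2 on the deposited −log10 scale. Of the 1014 ranked peaks past this value 147 are not in that list, and the reason was not tested. The cut of the other thresholded lists was not checked. The ceh-40 locus held 1 summit of the thresholded list made from both replicates, and the loci of ceh-20, ceh-60, unc-62 and psa-3 held 0, against 16.7% of all protein-coding loci with at least 1. On the X chromosome, where ceh-40 lies, 21.1% of protein-coding loci had one, and of windows as long as the ceh-40 locus 14.8% did. The ceh-40 peak was also in the conservative list, which reached 14.1% of protein-coding loci. The highest −log10 IDR was 2.54 at ceh-40, 1.91 at ceh-20, 1.30 at ceh-60, 0.88 at unc-62 and 0.78 at psa-3. A share of 1 in 5 is near the background shares, and nothing about the group is read from it.

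Each replicate also has a thresholded list of its own. That of replicate 1 had 0 summits in the 5 loci, against 5.93% of protein-coding loci with at least 1. That of replicate 2 had 1, just upstream of ceh-40, against 5.88% of protein-coding loci with at least 1. The thresholded peak made from both replicates was in neither replicate's own thresholded list.

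The ceh-40 gene (WBGene00000461) lies on the minus strand at chrX:12318126-12320777. It is the gene of the tagged protein itself. Its locus had 3 summits in the gene body, 2 upstream and 14 downstream of it. The thresholded peak lay downstream, with its summit 7731 bp from the gene start, in intergenic sequence between the neighbour xtr-2 and the pseudogene F17A2.4. Its signal was 59.0, with 25.7 in replicate 1 and 36.4 in replicate 2, and it was the strongest peak of the locus in replicate 2 but not in replicate 1.

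The next strongest peaks of the ceh-40 locus were of similar height to each other. A peak 6453 bp from the start, also intergenic, had a signal of 43.6, with 28.5 in replicate 1 and 18.2 in replicate 2. A peak in the coding sequence of xtr-2, 3650 bp from the start, had 42.3, with 15.1 in replicate 1 and 28.2 in replicate 2. The first was higher in replicate 1 and the second in replicate 2. The peak closest upstream of ceh-40, at chrX:12320793-12321032 with its summit 136 bp before the start, had 41.4, with 11.998 in replicate 1 and 30.7 in replicate 2. It was the peak that passed the threshold in replicate 2, and its signal in replicate 2 was 2.56 times that in replicate 1. Its value in replicate 1 comes from the matched list alone. The ranked list of replicate 1 held 0 summits within 1 kb before the ceh-40 start, and its nearest upstream summit was 1293 bp away. At the other 11 of the 12 ceh-40 locus peaks measured in both replicates the signals were within 2-fold.

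Inside ceh-40 the peaks were weak. The strongest, 110 bp into the gene, had a signal of 24.1, at the 46.8th percentile of the strongest peaks in protein-coding gene bodies of any length. The other peaks, at 866 and 1742 bp, had 18.1 and 14.9. None of the 3 was matched between the replicates: the ranked list of replicate 1 had 4 summits in the gene and that of replicate 2 had 0. The body held no peak in the top 10%, although the locus held 5.

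The thresholded peak downstream of ceh-40 lay in repeated sequence that resembles a tRNA gene. On the + strand the A box letters TAGCTCAGT stood at 12313024 to 12313032 and the B box letters GTTCAAGTC at 12313069 to 12313077, with 36 bases between them, and the summit at 12313046 lay between the boxes. The A box was searched as TNGCNNAGT and the B box as GTTCNANNC, both on the same strand of either orientation with 20 to 60 bases between, patterns chosen after this sequence was seen. The pair stood in 1 of the 154 locus peaks (0.649%) and in 0.484% of all nuclear ranked peaks, in 13.0% of the 840 nuclear thresholded peaks and in 32.7% of the 612 nuclear tRNA genes. The 31 bases at the centre of the peak occur 63 times in the genome, 16 of them on X and 0 in an annotated tRNA gene. Of these copies 20 lay in a ranked peak, with signals of 12.2 to 59.0 and a median of 24.2, and the ceh-40 copy was the highest and the 1 in a thresholded peak. Reads from identical copies may be placed at any of them, and the authors' treatment of such reads is not given in the sources used here.

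Ranked summits in sequence that recurs were more frequent in the ceh-40 locus than in the other 4 loci. Summits whose central 31 bases occur more than once numbered 8 of 154 in the 5 loci (5.19%), against 4.92% of all nuclear ranked summits and 22.7% of nuclear thresholded summits. Of the 8, 5 were in the ceh-40 locus, all of them downstream of the gene, with 63, 39, 2, 2 and 2 copies. The peak of signal 43.6 was 1 of them, with 2 copies. The ceh-40 summits with 2 copies lay near each other, at 6453, 6823 and 7178 bp from the start. The rest of the 8 were 2 at unc-62, with 36 and 5 copies, and 1 at psa-3, with 97. Recurring sequence away from ranked summits was not counted. The difference between the loci was not tested.

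Upstream of ceh-40 the ranked list held a long empty stretch. After the summits 136 and 937 bp before the start there was none for 16.3 kb, over 6 chemoreceptor genes of the srd family (srd-40, srd-41, srd-45, srd-46, srd-47 and srd-48). This gap was at least as long as 99.5% of the gaps between neighbouring ranked summits, whose median was 621 bp. The stretch held 0 summits of the list of peaks matched between the replicates, 3 of replicate 1 and 1 of replicate 2. Gaps of over 10 kb are not rare, since 1067 of them cover 19.98% of the nuclear genome.

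**Figure D3:**
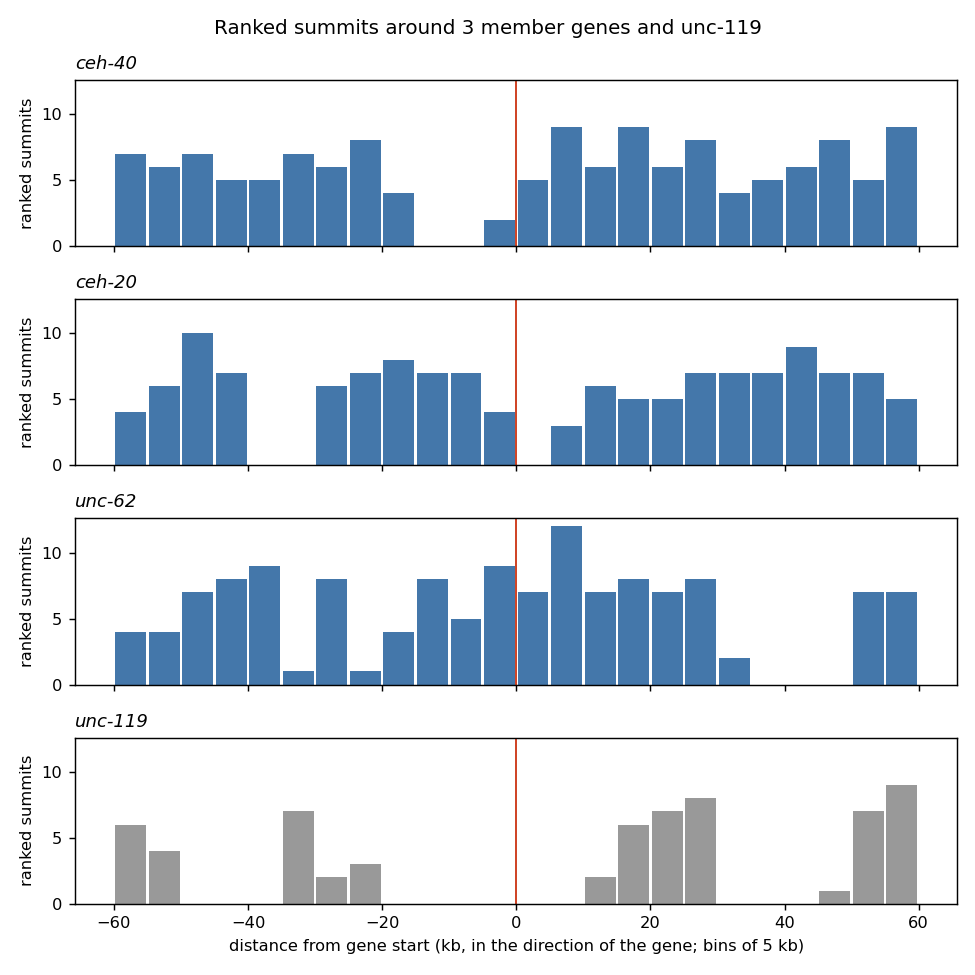
Number of ranked summits in bins of 5 kb (vertical axis) within 60 kb of the gene start (horizontal axis, in the direction of the gene; the vertical line is the start) for ceh-40, ceh-20 and unc-62, and for unc-119 (gray), the other gene in the transgene. Bins upstream of ceh-40, downstream of the ceh-20 start and around unc-119 are empty, and the highest bin of unc-62 is inside the gene. Empty bins also lie farther off, from 35 to 50 kb at unc-62 and from -40 to -30 kb at ceh-20.

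The other gene that the transgene holds, unc-119, was also poor in ranked peaks. Its locus had 3 ranked summits in 26.3 kb, or 0.114 per kb, at the 2.09th percentile of protein-coding loci, and windows of that length had a median of 30. The strongest had a signal of 28.5. The gap around its start was 38.1 kb long and held 0 matched summits, 11 of replicate 1 and 5 of replicate 2. The ceh-40 locus, at the 22.9th percentile of protein-coding loci by the same density, was not as sparse.

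The protein-coding loci most like ceh-40 in strongest signal and in summits per kb, combined as rank distances over all protein-coding loci in this 1 list, were those of F18C5.5, C14A11.9 and rbm-3.2. Their strongest signals were 58.1, 57.9 and 59.6, with 0.847, 0.834 and 0.821 summits per kb, against 59.0 and 0.839 at ceh-40.

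The ceh-20 gene (WBGene00000443), which encodes the main PBC partner of Hox proteins in worms, lies on the plus strand at chrIII:6979884-6981785. Its 1.90 kb held 0 ranked summits, as did 18.7% of protein-coding gene bodies. The nearest ranked summits were 3277 bp before the start and 7656 bp after it, a gap of 10.9 kb. It was at the 85.3rd percentile of the gaps at the starts of protein-coding genes, whose median was 1072 bp, and at the 99.1st of all gaps. Within 4 kb of the gene body there were 2 ranked summits, so ceh-20 was not among the 5.12% of protein-coding genes with none there. How common a count of 2 is was not measured. The ranked list thus placed its peaks around ceh-20 at a distance, with 11 upstream and 5 downstream.

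The strongest ranked peaks of the ceh-20 locus gathered at the far upstream edge, around neighbouring genes. The peak of signal 52.8, at chrIII:6971986-6972225, had 21.9 in replicate 1 and 30.5 in replicate 2, and its summit was 7778 bp before ceh-20 and 21 bp before the microRNA gene cel-mir-5549. A peak 9856 bp upstream, in untranslated sequence, had 49.1, with 27.1 in replicate 1 and 23.2 in replicate 2. A peak 8603 bp upstream, in an intron of eef-1A.1, which encodes a translation elongation factor, had 46.4, with 31.8 in replicate 1 and 18.3 in replicate 2. All 3 were nearer to a start site of another gene than to that of ceh-20, as were all 16 ranked summits of this locus.

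The list of peaks matched between the replicates showed another picture at ceh-20. It held 9 summits in the locus that the ranked list lacks, against 2 at ceh-40, 5 at ceh-60, 3 at unc-62 and 2 at psa-3, and 7915 over the nuclear chromosomes. The strongest was at chrIII:6978991-6979230, with its summit 773 bp before the ceh-20 start, and its signal of 53.0 was the highest of the ceh-20 locus in that list and at the 98.5th percentile of the list. It had 30.1 in replicate 1 and 16.5 in replicate 2, and its −log10 IDR was 0.66, so it did not reach the threshold. Inside the gene the matched list held peaks of 27.8 and 25.5. The replicates differed there: the first had 5.32 in replicate 1 and 25.4 in replicate 2, and the second had 20.2 in replicate 1 and 7.36 in replicate 2. The ranked list of replicate 1 held 1 summit within 1 kb before the ceh-20 start and that of replicate 2 held 0.

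A peak near the ceh-20 start was therefore present or absent according to which of the authors' lists was read. The 10.9 kb gap around ceh-20 held 7 matched summits, 4 of replicate 1 and 3 of replicate 2. Over all 1067 gaps of more than 10 kb in the ranked list, matched summits had a density of 0.0726 per kb, against 0.777 per kb over the genome, and 132 gaps held at least 5. The reason why the ranked list lacks these peaks was not tested.

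The ceh-60 gene (WBGene00017690), whose PBC protein works with UNC-62 on yolk protein genes, lies on the minus strand at chrX:6522596-6530146. Its locus held 34 ranked summits, with 7 in the gene body, 14 upstream and 13 downstream. The strongest, at chrX:6522796-6523035, was inside the gene near its end, with its summit in coding sequence 7230 bp from the start. Its signal was 47.8, with 28.7 in replicate 1 and 27.3 in replicate 2, so the replicates were close. Against the strongest peaks of protein-coding gene bodies it lay at the 95.8th percentile, the highest of the 5 members. Bodies of all lengths were ranked together here, and a longer body has more chances of a strong peak.

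The other strong peaks at ceh-60 lay outside the gene. The peak of signal 43.5, with 22.1 in replicate 1 and 25.7 in replicate 2, was in an intron of the neighbour ets-4, which encodes an ETS transcription factor. A peak 2757 bp before the ceh-60 start, in intergenic sequence and with ceh-60 as its nearest start site, had 40.04, with 18.4 in replicate 1 and 18.3 in replicate 2. Nearer to the start, peaks at 559 bp before it and 533 bp after it had signals of 31.2 and 22.7. The first of these had 16.7 in replicate 1 and 12.6 in replicate 2, and the second had 10.3 in replicate 1 and 10.7 in replicate 2. The longest intron, number 7 from the start and 2.29 kb long, held 1 summit, of signal 28.8.

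The unc-62 gene (WBGene00006796), the worm's main MEIS gene, lies on the plus strand at chrV:4497461-4511449, with 18 annotated transcripts and 15 start sites. It was the member with most peaks in its own body: 25 ranked summits in 13.99 kb, or 1.79 per kb, at the 80.5th percentile of protein-coding gene bodies, whose median was 1.21 per kb. In 36 of the 54 summits of the locus the nearest start site was 1 of unc-62, against 8 of 34 at ceh-60, 8 of 31 at psa-3, 4 of 19 at ceh-40 and 0 of 16 at ceh-20. In the ranked list of both replicates all 6 peaks of the unc-62 locus in the top 10% were inside the gene. The counts were 1 of 5 at ceh-60, 1 of 3 at psa-3, 0 of 5 at ceh-40 and 0 of 3 at ceh-20. The gene body makes up 13.99 of 34.0 kb at unc-62, but 2.65 of 22.7 kb at ceh-40 and 1.90 of 21.9 kb at ceh-20. In replicate 2's own ranked list the strongest unc-62 peak, of signal 28.2 at the 96.2nd percentile, lay outside the gene, 22946 bp from the first start. A gene with many start sites has more chances to be the nearest.

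The peaks in unc-62 were many but of middling height. The strongest, at chrV:4509993-4510232 in coding sequence 12652 bp from the first start, had a signal of 38.6, with 20.3 in replicate 1 and 14.6 in replicate 2. The next, 12137 bp from the first start in untranslated sequence, had 37.3, with 19.1 in replicate 1 and 20.9 in replicate 2. The next, 69 bp before an internal start site, had 36.6, with 13.5 in replicate 1 and 24.8 in replicate 2. The other peaks nearest to the start sites of unc-62 had signals of 3.22 to 34.8, and that at the first start, 59 bp into the gene, had 24.9, with 9.09 in replicate 1 and 11.5 in replicate 2. Every annotated start site of unc-62 had a ranked summit within 500 bp, and 1 summit could serve several. At 1.79 summits per kb most positions in the gene have one nearby, and no background was taken, so nothing is read from this. Some of these summits were weak, such as those of 3.22 and 7.73, at the 1.51st and 9.20th percentile of ranked peaks.

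Intron 6 of unc-62, 1.12 kb long, held 3 summits, with a median signal of 35.0, and intron 5, of 0.556 kb, held 2. The longest intron, the first at 1.74 kb, held 2, with a strongest signal of 29.8. In replicate 1 the unc-62 locus had 35 summits, or 1.03 per kb, against 0.512 per kb over the genome, and in replicate 2 it had 28, or 0.824 per kb, against 0.440 per kb. It was the densest of the 5 loci in both replicates and in the matched list, where it had 48 summits.

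The psa-3 gene (WBGene00009560), whose MEIS protein is known in worms as a target of CEH-20 with the Hox protein NOB-1, lies on the plus strand at chrX:15407931-15419298. Its locus held 31 ranked summits, with 12 in the gene body, 3 upstream and 16 downstream. The strongest, at chrX:15424129-15424368, had a signal of 42.9, with 12.5 in replicate 1 and 32.5 in replicate 2. Its summit was 16318 bp from the first psa-3 start and 64 bp before a start site of the neighbour F39D8.3, in coding sequence of that gene. The letters ATTTATCA, which are TGATNNAT read on the minus strand, lay under this summit.

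The strongest peak inside psa-3 had a signal of 36.7, with 13.4 in replicate 1 and 20.8 in replicate 2. It lay in intron 3, which is 8.34 kb long, holds the gene pqn-36 on the other strand and contained 11 of the 12 summits of the psa-3 body. Its nearest start site was that of pqn-36, 785 bp away, and its 200 bp window held both a TGATNNAT and a TGACAG. The other peak of this locus in the top 10%, of signal 34.4, with 9.69 in replicate 1 and 19.2 in replicate 2, was in the coding sequence of nas-13. The summit 75 bp before the first psa-3 start had a signal of 19.98 and no matched peak in the replicates. In the ranked list of replicate 1 there was no summit for 12041 bp upstream of psa-3, whereas in replicate 2 the nearest was 357 bp upstream.

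The replicates did not order the members alike, and the order also depended on the list. In the replicates' own ranked lists the strongest signal of replicate 1 was 31.8 at ceh-20, 28.7 at ceh-60, 28.5 at ceh-40, 20.3 at unc-62 and 19.1 at psa-3. In that of replicate 2 it was 36.4 at ceh-40, 30.5 at ceh-20, 28.2 at unc-62, 27.3 at the ceh-60 locus and 26.1 at psa-3. The strongest psa-3 peak, with 32.5 in replicate 2, is not in the ranked list of replicate 2, and its value comes from the matched list. By the signals of the matched list psa-3 was thus second in replicate 2, after ceh-40, and lowest in replicate 1, with 15.9. No order of the members was shared by both replicates in both kinds of list, and with 2 replicates of 1 group no test was made.

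Of the 154 ranked summits, 113 (73.4%) had a matched signal in both replicates, against 67.8% of all nuclear ranked summits. Over these 113 peaks the signal in replicate 2 was a median of 1.23 times that in replicate 1, and over all ranked peaks 1.21 times. The signals were within 2-fold of each other at 89 of the 113 (78.8%), against 75.8% of all. The ratio was 1.53 at unc-62, 1.44 at psa-3, 1.12 at ceh-20, 1.04 at ceh-60 and 0.868 at ceh-40. Spearman's rho between the replicates was 0.27 over the 113 peaks and 0.20 over all 69991, given as a description because neighbouring summits can share a replicate peak and every peak comes from the same 2 libraries. By locus rho was 0.08 at ceh-40 (12 peaks), 0.48 at ceh-20 (12), 0.32 at ceh-60 (25), 0.20 at unc-62 (45) and 0.38 at psa-3 (19).

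**Figure D4:**
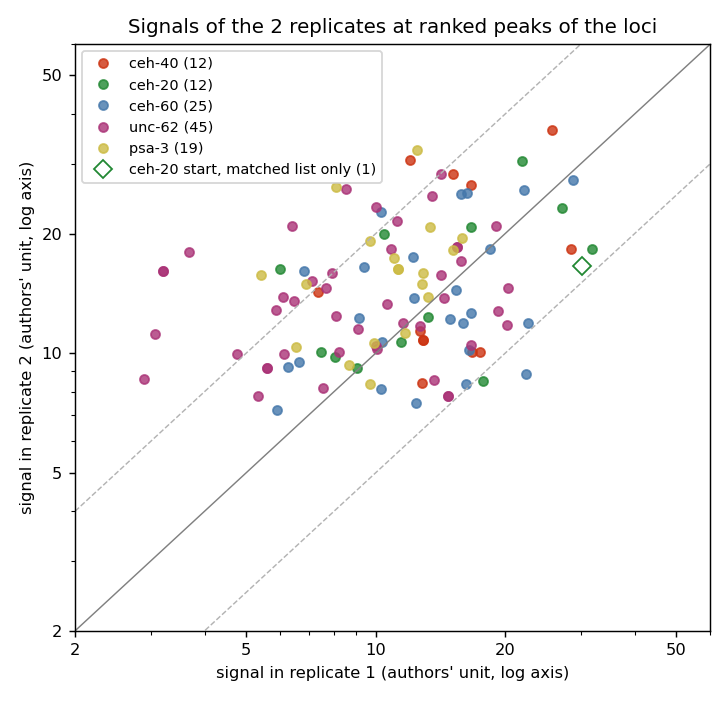
Signal in replicate 2 (vertical axis, log) against signal in replicate 1 (horizontal axis, log), in the authors' unit, for the 113 ranked peaks of the 5 loci with a signal in both, coloured by locus, and for the ceh-20 start peak of the matched list (open diamond). The solid line marks equal signal and the dashed lines a 2-fold difference, within which 89 of the 113 lie.

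By annotation a smaller share of the members' summits than of all ranked summits lay in coding sequence, whereas the intron and untranslated shares varied by locus; none of these differences was tested. Of the 154, 53 (34.4%) lay in an intron, 50 (32.5%) between genes, 26 (16.9%) in coding sequence and 18 (11.7%) in untranslated sequence. Over all nuclear ranked summits the shares were 29.3% intron, 29.3% intergenic, 31.2% coding sequence and 5.70% untranslated sequence. The share in coding sequence was 9.26% at unc-62, 12.5% at ceh-20, 14.7% at ceh-60, 26.3% at ceh-40 and 29.0% at psa-3, the last near that of all summits. The ceh-20 gene body held 0 ranked summits, so coding and untranslated summits of that locus were in other genes. In the psa-3 body the summits lay in its introns 3 (11) and 4 (1), so the coding summits of that locus were in other genes too. In introns unc-62 had 23 of its 54 summits (42.6%), and the other 4 loci had 26.3% to 35.5%. Of the 18 in untranslated sequence 10 were at unc-62, 4 at ceh-20, 3 at psa-3, 1 at ceh-60 and 0 at ceh-40. A base that is untranslated in any transcript was counted so, even where another transcript has coding sequence or an intron. The unc-62 gene has 18 annotated transcripts, and the effect of this order on its shares was not tested. Within 500 bp of the start site of any gene lay 51 of the 154 (33.1%), against 34.8% of all ranked summits.

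Sites for the proteins themselves were searched as letters, on either strand, in windows of 200 bp centred on the summits. TGATNNAT, the site of a PBC protein with a Hox protein, was in 24 of 154 windows (15.6%, Wilson 95% interval 10.7 to 22.1), against 14.8% of all nuclear ranked windows. TGACAG, the core site of MEIS proteins, was in 11 of 154 (7.14%, 4.03 to 12.3), against 7.40% of all. The intervals cover counting error only and both hold the share of all ranked windows. Both patterns were present in 5 of the windows.

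The ceh-40 locus had the highest share of both. TGATNNAT was in 7 of its 19 windows (36.8%, 19.1 to 59.0) and TGACAG in 4 of 19 (21.1%, 8.51 to 43.3). The peak 110 bp into ceh-40 held 1 TGATNNAT and 3 TGACAG. The peak 136 bp before the start held 1 TGACAG, outside the bases printed for it. For TGATNNAT the share was 4 of 16 at ceh-20, 5 of 34 at ceh-60, 5 of 54 at unc-62 and 3 of 31 at psa-3. For TGACAG it was 0 of 16, 1 of 34, 3 of 54 and 3 of 31 in the same loci. The highest of 5 shares was picked out after the values were seen, and the difference between loci was not tested.

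Counted by site, the 5 loci held 141 TGATNNAT, of which 27 (19.1%) were within 100 bp of a ranked summit, where 22.5% of their bases lay. Over the nuclear genome the figures were 19.9% of sites and 20.6% of bases. They held 69 TGACAG, of which 14 (20.3%) were within 100 bp of a summit, against 22.4% of sites over the genome. Over the 5 loci together neither kind of site was more frequent near summits than the bases were, but the loci differed. At ceh-40, 8 of 26 TGATNNAT (30.8%) and 6 of 16 TGACAG (37.5%) were within 100 bp of a summit, with 16.8% of the bases. Of these 6 TGACAG, 3 were at the summit 110 bp into the gene, of signal 24.1, which had no matched signal in the replicates. At ceh-20 the shares were 17.9% of TGATNNAT and 0% of TGACAG, with 14.6% of the bases. At ceh-60, unc-62 and psa-3 both shares were below that of the bases. The differences between loci were not tested. A match of letters says nothing of whether a protein was there.

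The partners and known targets of these proteins were counted under the same locus rule, by which 16.7% of all protein-coding loci had a thresholded summit. Each list below with 1 of 6 is at that share, and nothing is read from it. Of 6 Hox genes (mab-5, lin-39, ceh-13, nob-1, php-3 and egl-5), 1 had a thresholded summit within 10 kb, lin-39, whose strongest signal was 106.2. Of 6 genes known as targets of PBC and Hox proteins in worms (hlh-8, egl-1, egl-18, ceh-13, lin-39 and psa-3) the same gene had one, and 3 of them are also Hox genes or members. Of 6 vitellogenin genes, which encode yolk proteins and are known targets of CEH-60 and UNC-62, 1 had one, vit-6, with a strongest signal of 126.2. The homeobox gene irx-1, of the same TALE superclass as the 5 members, had 0 and a strongest signal of 36.1. The median strongest signal was 39.7 in the Hox list, 42.6 in the target list and 43.5 in the vitellogenin list, against 47.8 over the 5 members and 41.7 over all protein-coding loci.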

How the data were processed

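Per the file listing deposited with the samples, the authors' peaks are on ce11; the aligner and peak caller: not given in the sources used here. The authors deposited for each peak a signal without a unit, a score column, and −log10 IDR in the ranked lists. Replicate signals came from their list of peaks matched between replicates: of its signal columns, the first matched 35740 peaks of replicate 1 and 0 of replicate 2 exactly, the second 41183 of replicate 2 and 0 of replicate 1. Read counts are not in the lists, so depth per sample is unknown.

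From these, summits were counted in each gene with 10 kb on either side and ranked within the nuclear part of a list. Backgrounds were all 19973 protein-coding loci and every window of the same length in steps of 1 kb, an exhaustive grid in place of random draws. The analysis used Python 3.11.15, numpy 2.4.6, pandas 2.3.3, scipy 1.17.1 and matplotlib 3.10.9, and was tested on simulated peaks. Named peaks were the 3 strongest per locus, every thresholded peak and that nearest to each start site within 1 kb. Members and lists were chosen with earlier results of these data known, so no p-value is given. The matched-list peaks, long gaps, repeat copies and A and B boxes were added after the data were seen. Alternatives were other flanks, lists, overlaps, backgrounds, site windows and each replicate alone.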

Additional observations from a re-analysis of the deposited data

How the results depend on the processing

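Several counts depended on the width of the loci and on the list. With a replicate left out, the other replicate's own lists were used. The 1 locus with a thresholded peak became 0 without flanks and 0 with 5 kb. It was also 0 without summits whose central bases recur in the genome, an alternative added after the data were seen, and 0 to 1 with each replicate left out. The 5 loci with a peak in the top 10% became 3 without flanks, and 3 to 5 with each replicate left out. The count of 154 summits became 47 without flanks, 99 with 5 kb and 273 with 20 kb. It was 77 to 105 with each replicate left out. The density of 1.12 per kb in the 5 loci fell to 0.764 without replicate 2 and 0.560 without replicate 1. Genome-wide density fell as well, from 1.03 per kb to 0.512 without replicate 2 and 0.440 without replicate 1. The joint density of the 5 loci thus stayed above that of the genome each time, a difference that was not tested. It did not hold for each locus. With both replicates unc-62 (1.59 per kb) and ceh-60 (1.23) were above the genome, whereas psa-3 (0.988), ceh-40 (0.839) and ceh-20 (0.731) were below it. In replicate 1 psa-3 was below the genome, with 0.383 per kb, and the other loci were above it. In replicate 2 ceh-20 was below, with 0.411 per kb, and the other loci were above. No member was in the top 10% of protein-coding loci, but without flanks, with gene bodies of all lengths ranked together, 1 was, ceh-60. The share of windows with TGATNNAT, 15.6%, became 7.79% in 100 bp and 31.2% in 400 bp, and that with TGACAG, 7.14%, became 2.60% and 15.6%. A wider window holds more matches of any pattern, and the shares of all ranked windows were not taken at these widths. Whether the comparison with them moved was not tested. The other 40 comparisons stayed within 1.5 times or within the counting interval. The order of the loci was not tested, since 2 replicates of 1 group allow no test between conditions. Depth is unknown, so peaks in 1 replicate alone cannot be told from a difference in sequencing. No paired analysis was possible because there is 1 group.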
